A study of Mus musculus with 12 samples.

Results

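The hippocampus, which forms memories of places and events, and the prefrontal cortex, which serves planning and the control of behaviour, were compared for how their transcripts differed after irradiation of the abdomen. The material was all 12 libraries of the study, from mice that were all male and of the inbred strain C57BL/6. By the mouse number in their titles, the libraries were taken as 1 of each region from each of 6 mice. To model chronic injury of the gut, 3 mice had received X-rays to the abdomen, and their library names carry 13 Gy as the dose. The other 3 mice were not irradiated. The brains were taken in the chronic phase, but the sources used here give neither the time after irradiation, nor the age, nor any shielding of the head. For each mouse the log2(FPKM + 1) of a gene in prefrontal cortex was subtracted from that in hippocampus, which gave the region difference of that mouse. FPKM scale the fragments of a gene by its length and by the size of the library. The mean region difference of the irradiated mice minus that of the controls is called the shift here. A positive shift means that irradiated mice differed from controls more upward, or less downward, in hippocampus than in prefrontal cortex. Of 23183 genes listed, the 12894 whose mean across the libraries reached 1 FPKM were tested.

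Blood vessels and the membranes around the brain carry cells that are neither neurons nor glia. Fibroblasts line the meninges and the outer wall of larger vessels, where they make collagen, retinoic acid and carriers that take solutes out of the cerebrospinal fluid, and endothelial cells and pericytes form the barrier between blood and brain. The choroid plexus, an epithelium in the ventricles next to the hippocampus, secretes cerebrospinal fluid.

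The libraries summed to between 381417 and 435534 FPKM, and their relative depth, read from the steps of the low values, ran from 0.873 to 1.06. The region labels matched their markers. C1ql2 of dentate granule cells stood at 29.5 to 38.1 FPKM in hippocampus and 0.347 to 0.846 FPKM in prefrontal cortex, and Lamp5 of cortical neurons at 16.1 to 20.3 and 76.7 to 91.4 FPKM. The prefrontal cortex libraries also carried striatal transcripts, with the opioid precursor Penk at 180.9 to 243.5 FPKM against 14.8 to 22.5 FPKM in hippocampus. The hippocampus of irradiated mouse 2 held little choroid plexus. Its 23 listed choroid genes summed to 90.4 FPKM, against 3326.1 to 6160.1 FPKM in the other 5 hippocampus libraries, and among the prefrontal cortex libraries control 3 stood highest with 82.3 FPKM.

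The sequences before the start of 4 genes that the results turn on are printed first, because 3 of them belong to the group of genes with the largest positive shift and the fourth had the smallest p-value of the lower side. Each is the 250 bases before the RefSeq start, 5′ to 3′ on the gene's strand, in assembly GRCm38.p6. The gene positions given further on come from another annotation, GENCODE, whose starts can differ. A window can therefore lie partly or, as for Ptgds, wholly within the gene as placed there. Slc6a13, a carrier of GABA and taurine in fibroblasts and at the blood-brain barrier, lies at chr6:121300038-121300287 on the plus strand, at the first of its listed starts. Aldh1a2, which makes retinoic acid, lies at chr9:71215539-71215788 on the plus strand. Ptgds, the synthase of prostaglandin D and a carrier of lipids in cerebrospinal fluid, lies at chr2:25469750-25469999 on the minus strand. Dynlrb2, a light chain of the dynein motor that works in cilia, lies at chr8:116504765-116505014 on the plus strand. Capitals mark the motifs found among the 6 searched on both strands.
Slc6a13: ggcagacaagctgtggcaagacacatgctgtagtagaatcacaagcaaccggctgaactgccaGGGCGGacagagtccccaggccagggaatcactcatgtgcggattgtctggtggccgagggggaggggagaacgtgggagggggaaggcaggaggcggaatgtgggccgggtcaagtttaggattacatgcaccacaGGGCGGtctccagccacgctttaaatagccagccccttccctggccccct
Aldh1a2: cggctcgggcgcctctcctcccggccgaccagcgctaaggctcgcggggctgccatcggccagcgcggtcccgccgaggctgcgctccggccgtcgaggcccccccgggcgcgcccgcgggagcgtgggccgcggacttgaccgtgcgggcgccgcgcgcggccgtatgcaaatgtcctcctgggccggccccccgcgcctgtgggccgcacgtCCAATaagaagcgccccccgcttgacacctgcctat
Ptgds: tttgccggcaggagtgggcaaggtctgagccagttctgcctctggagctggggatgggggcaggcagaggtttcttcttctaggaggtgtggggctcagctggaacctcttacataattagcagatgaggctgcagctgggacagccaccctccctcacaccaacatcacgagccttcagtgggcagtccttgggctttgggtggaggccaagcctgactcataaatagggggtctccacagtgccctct
Dynlrb2: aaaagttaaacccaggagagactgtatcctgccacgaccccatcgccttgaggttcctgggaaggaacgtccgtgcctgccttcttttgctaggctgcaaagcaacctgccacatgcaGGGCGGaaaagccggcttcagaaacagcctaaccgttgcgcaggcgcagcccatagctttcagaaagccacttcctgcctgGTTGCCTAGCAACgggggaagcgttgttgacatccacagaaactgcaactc

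The motifs searched were the TATA box with the letters TATAAA and the forkhead motif with the letters GTAAACA. The others were the nuclear receptor site with the letters AGGTCA, the box with the letters CCAAT and the GC box with the letters GGGCGG. The X-box, which RFX factors bind, was added after the Dynlrb2 sequence had been read. A match describes the letters in the window and does not show binding. In Slc6a13 the GC box occurred at 187 and at 50 bases before the start, and in Aldh1a2 the CCAAT box occurred at 36 bases before it. In Dynlrb2 the X-box began 51 bases and a GC box 132 bases before the start. In Ptgds the window held none of these letters. Over all 32851 promoter entries, 32.7% held the GC box, 33.8% the CCAAT box, 12.4% the TATA box, 14% the nuclear receptor site, 3.17% the forkhead motif and 0.128% the X-box in the same window. Of the 23 entries of 17 fibroblast genes, 11 held the GC box, 6 the CCAAT box, 1 the TATA box, 2 the nuclear receptor site, 0 the forkhead motif and 0 the X-box.

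The first question was whether any gene responded differently in the 2 regions. After Benjamini-Hochberg adjustment in limma, 0 of 12894 genes (0%) passed for the shift, and the smallest adjusted p was 0.281, for Dynlrb2 and Crabp2. At an unadjusted p under 0.05 there were 681 genes, where 645 would be expected if no gene differed. Of these, 377 (2.92%) had a positive shift and 304 (2.36%) a negative shift. The irradiated mice all lay above all controls in 624 genes (4.84%) and all below in 691 genes (5.36%). No single gene thus passed the test, and an exact two-sided permutation test of 3 mice against 3 could not go below p = 0.1. The p-values weigh a shift against the spread between these mice, which limma draws toward that of genes of similar level. Leaving out 1 mouse brought adjusted calls for Snora30 without irradiated mouse 1, for Snora65 and Snord22 without control mouse 1, and for Syne1 without control mouse 3, all chosen for naming because the counts are small. The median shift was -0.005 and 48% of the genes had a positive one. The middle 90% of the genes lay between -0.222 and 0.245, and the median SE of a shift was 0.109. What follows describes the genes and groups at the ends of that distribution, with unadjusted p-values from the same limma fit unless they are named as adjusted.

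In the regions themselves, limma passed 0 of 12894 genes (0%) in hippocampus after adjustment and 1 gene (0.00776%) in prefrontal cortex. That gene was Snora81, a small nucleolar RNA, which shares its locus with Eif4a2 on the same strand (chromosome 16, 23110756 to 23110933). It was listed in prefrontal cortex at 11.5, 13.6 and 16.1 FPKM in irradiated mice and at 0 in the 3 controls, and in hippocampus at 9.59, 6.91 and 0 against 0, 7.36 and 0 FPKM, and a value of 0 in such files can be a failed estimate. At an unadjusted p under 0.05, 602 genes (4.67%) were higher and 729 (5.65%) lower in irradiated hippocampus, and 310 (2.4%) were higher and 620 (4.81%) lower in irradiated prefrontal cortex. Both regions reached p under 0.05 in 208 genes. Of these, 81 were higher in both, 112 were lower in both, 14 were higher in hippocampus and lower in prefrontal cortex, and 1, 4930404N11Rik, had the opposite pattern. The 14 were Crabp2, Cd248, Erich3, Gpc3, Spp1, Prg4, Slc6a13, Col1a1, Aldh1a2, Gjb2, Fmod, Ptgds, Col1a2 and Slc22a6, all named here because the count is small. They were 0.109% of the 12894 genes tested. Of the 14, 8 belong to the list of meningeal and perivascular fibroblasts, of which 23 genes were tested. That list was written with earlier results of these data known, so this overlap is not independent evidence. The count of 14 rested on single mice: it was 8 without irradiated mouse 1 and 8 without control mouse 1, 28 without irradiated mouse 2 and 26 without control mouse 3. Likewise the 1331 hippocampal genes at p under 0.05 were 744 without irradiated mouse 1, 789 without irradiated mouse 2 and 576 without control mouse 1.

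Genes of meningeal and perivascular fibroblasts stood higher in irradiated than in control hippocampus and lower in irradiated than in control prefrontal cortex. Of 25 listed genes, 23 were tested. A positive shift was found in 21 of them and an unadjusted p under 0.05 in 18, all positive, and the irradiated mice lay above all controls in 15. The median shift was 0.78, against -0.005 over all genes. Over all genes, the share at that p with a positive shift was 2.92% and the share with all irradiated mice above 4.84%. In hippocampus 19 of the 23 were higher in irradiated mice and 14 of these had p under 0.05, with a median of 0.42. In prefrontal cortex all 23 were lower and 12 had p under 0.05, with a median of -0.35. None of the 23 passed after adjustment. At an unadjusted p under 0.05, 4.67% of all genes were higher in irradiated hippocampus. In irradiated prefrontal cortex 4.81% of all genes were lower and 2.4% higher at that p. The list was written with earlier results of these data known, among them one on its hippocampal side. The shift holds the hippocampal effect as one of its terms. Neither the counts and medians of either region nor those of the shift are therefore independent evidence of direction. The shares over all genes are given for scale only. In bulk tissue, fewer cells of a type and less RNA per cell cannot be told apart.

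Crabp2, which carries retinoic acid into the nucleus (chromosome 3, 87948666 to 87953376), had the smallest p of these genes. Its level in hippocampus was 4.58, 4 and 3.56 FPKM in irradiated mice 1, 2 and 3, and 1.18, 1.46 and 1.67 FPKM in control mice 1, 2 and 3. In prefrontal cortex it was 1.00, 2.60 and 1.57 FPKM in the irradiated mice, and 2.74, 2.93 and 3.29 FPKM in the controls. The groups did not overlap in either region, and they lay in opposite order: irradiated mice above controls in hippocampus and below them in prefrontal cortex. The region difference was 1.48, 0.47 and 0.83 in the irradiated mice and -0.78, -0.68 and -0.68 in the controls. This gave a shift of 1.64 ± 0.23 (SE, n = 3 mice per group, limma adjusted p = 0.281), made of 1.05 ± 0.11 in hippocampus and -0.59 ± 0.19 in prefrontal cortex.

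Slc6a13, whose promoter window is printed above, lies at chromosome 6, 121300227 to 121337733. It stood at 5.21, 5.39 and 4.71 FPKM in irradiated hippocampus and at 1.30, 1.83 and 4.03 FPKM in control hippocampus. In prefrontal cortex it stood at 1.36, 2.54 and 2.23 FPKM in irradiated mice and at 4.96, 3.73 and 3.17 FPKM in controls. The groups did not overlap in either region, but control mouse 3 lay close to the irradiated mice in both. The shift was 1.64 ± 0.35 (SE), with 0.93 in hippocampus and -0.71 in prefrontal cortex.

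Ptgds (chromosome 2, 25466709 to 25470046), which the meninges, the choroid plexus and oligodendrocytes all express, was the most abundant gene of the list. Its hippocampal level was 1114.9, 871.5 and 1200.8 FPKM in irradiated mice and 324.3, 476.7 and 886.2 FPKM in controls, so that control mouse 3 overlapped with the irradiated mice. In prefrontal cortex it was 279.9, 637.6 and 554.5 FPKM in irradiated mice and 915.8, 775.6 and 799.3 FPKM in controls, without overlap. The shift of 1.87 ± 0.43 (SE) was the largest of the list.

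Aldh1a2 (chromosome 9, 71215789 to 71296243) was at 5.61, 5.06 and 5.89 FPKM in irradiated hippocampus and at 1.90, 2.60 and 5.75 FPKM in control hippocampus. It was in prefrontal cortex at 0.895, 2.25 and 2.11 FPKM in irradiated mice and at 3.22, 3.31 and 3.47 FPKM in controls. Again the controls overlapped with the irradiated mice in hippocampus through mouse 3 and did not overlap in prefrontal cortex. Its shift was 1.35 ± 0.31 (SE).

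**Figure D1:**
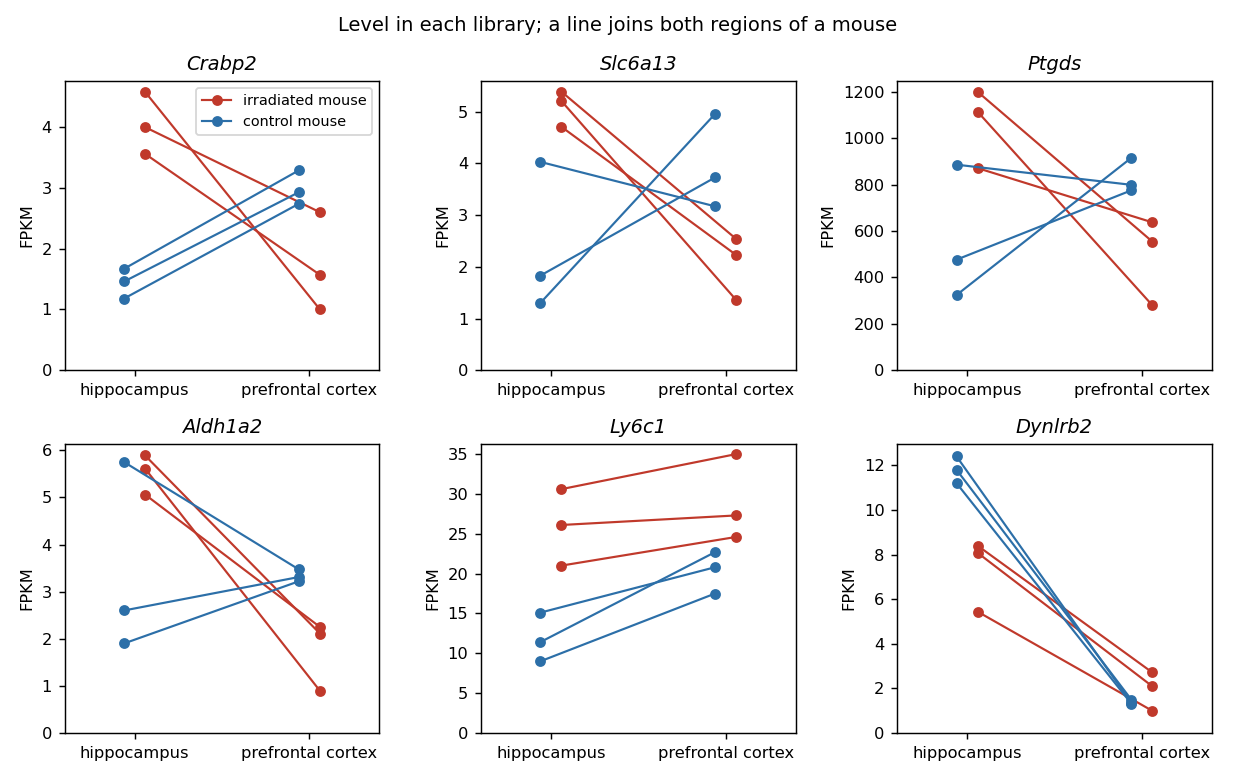
FPKM (linear axis) of 6 genes in each library, hippocampus on the left and prefrontal cortex on the right of each panel, with a line joining both regions of a mouse, in red for the 3 irradiated and in blue for the 3 control mice. For Crabp2 the red lines fall from left to right and the blue lines rise, while for Ly6c1 all red points lie above the blue ones in both regions and for Dynlrb2 the red points lie below the blue ones in hippocampus only.

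The remaining members are given by their roles. Among genes of the matrix, the collagen chains Col1a1 and Col1a2 had shifts of 0.91 and 0.79, fibronectin Fn1 1.11, and the small proteoglycans Fmod, Ogn, Bgn, Dcn and Lum 1.51, 0.86, 0.78, 0.66 and 0.22. Among carriers of solutes, Slc22a6, a carrier of organic anions, had a shift of 1.29, the amino acid carrier Slc6a20a 0.74 and the dicarboxylate carrier Slc13a3 0.48. Among regulators and secreted factors, the stress-induced Nupr1 had 1.00, the adhesion protein Islr 0.68, the complement inhibitor Serping1 0.58, the transcription factor Foxc1 0.45, the receptor Pdgfra (also of oligodendrocyte precursors) 0.15 and the growth factor Bmp6 0.14. Negative shifts were found in Igf2, at -0.10, and in its binding protein Igfbp2, at -0.46, which the choroid plexus also makes. Igf2 and Islr share their loci with other genes on the same strand, so their reads are less certain. In hippocampus Igf2 stood at 23.1 FPKM in irradiated mouse 2 and at 55.1 to 70.9 FPKM in the other mice, and Igfbp2 at 25.6 against 84.4 to 117.2 FPKM in the other mice. Those 2 genes were thus low in the library with little choroid plexus. Without that mouse their shifts were 0.51 and 0.02, and those of Bmp6 and Lum changed sign when other mice were left out. Col3a1 and Foxc2, with means of 0.389 and 0.441 FPKM, were below the minimum and were not tested.

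**Figure D2:**
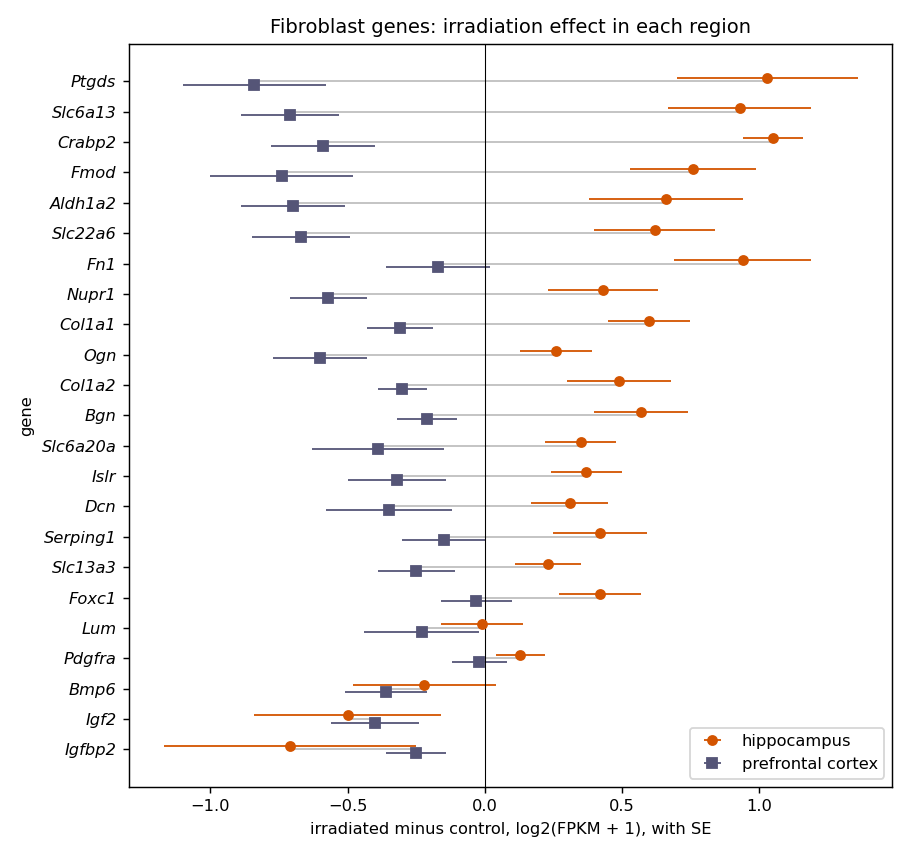
Irradiated minus control on the log2(FPKM + 1) scale with its SE for each of the 23 tested fibroblast genes, in hippocampus (orange circles) and prefrontal cortex (dark squares), ordered by the shift. The squares lie left of 0 for all 23 genes, and the circles lie right of 0 for 19.

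The pattern did not rest on 1 mouse alone, but its size did vary among them. The mean region difference over the 23 genes was 1.25, 0.53 and 0.96 in irradiated mice 1, 2 and 3, and -0.18, 0.06 and 0.48 in control mice 1, 2 and 3. The groups did not overlap, and irradiated mouse 2 lay just above control mouse 3. Leaving out each mouse in turn moved the median shift between 0.62 and 0.97, the number of positive genes between 20 and 23, and the number at p under 0.05 between 13 and 20. The markers Col1a1, Col1a2 and Dcn were above 0 in every library. They stood at 0.585 to 1.98, 1.65 to 4.25 and 21.2 to 38.4 FPKM in hippocampus and 0.849 to 1.80, 2.37 to 3.59 and 2.01 to 5.68 FPKM in prefrontal cortex. Dcn is also in the list of hippocampal subfields, so it does not mark fibroblasts alone. The summed level of the list was 1053.0 to 1528.8 FPKM in irradiated and 596.5 to 1158.4 FPKM in control hippocampus, and 370.2 to 749.6 FPKM in irradiated and 910.4 to 1063.8 FPKM in control prefrontal cortex, most of it Ptgds. How much meningeal tissue each block held was not measured, and its part in the shift was not tested.

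**Figure D3:**
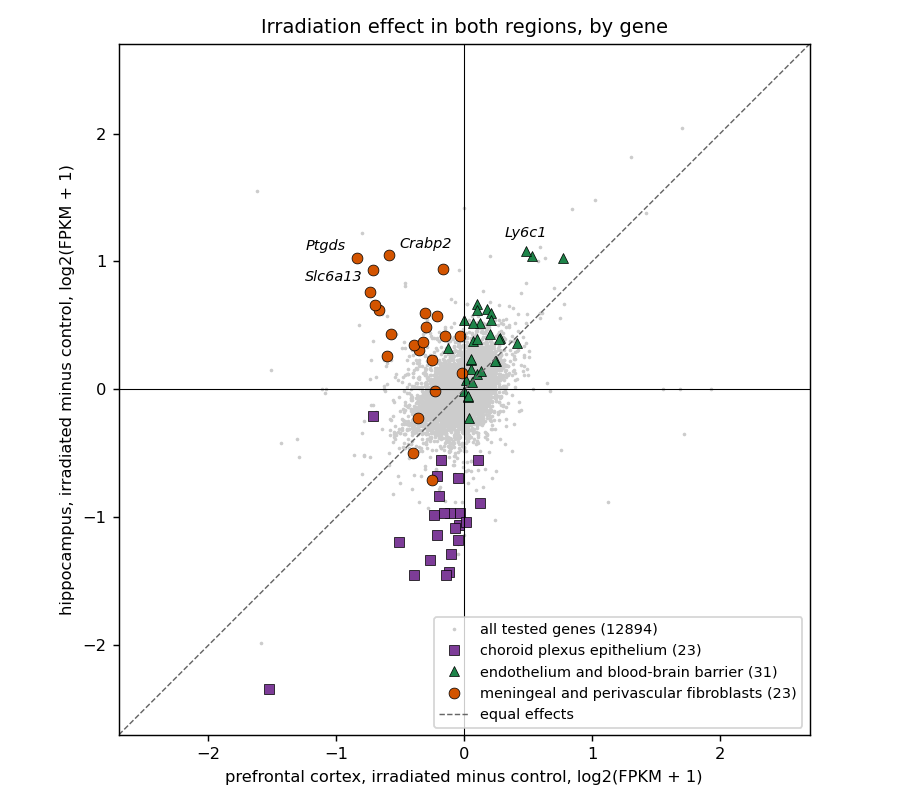
Irradiated minus control on the log2(FPKM + 1) scale in hippocampus (vertical) against prefrontal cortex (horizontal) for each gene, with 10 genes beyond the axes and the dashed line marking equal effects. Fibroblast genes (orange) lie mostly to the upper left, endothelial genes (green) lie mostly above the dashed line, and choroid plexus genes (purple) lie low in hippocampus with a median of -1.04.

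Other genes with the smallest p on the positive side, taken by rule, included several secreted or matrix proteins. Cnn2, an actin-binding calponin (chromosome 10, 79988584 to 79996062), was at 4.94, 5.66 and 6.11 FPKM in irradiated and 3.41, 3.56 and 3.38 FPKM in control hippocampus. Its prefrontal cortex levels were 2.65, 3 and 3.93 FPKM in irradiated and 4.62, 3.40 and 3.76 FPKM in control mice. The groups separated in hippocampus and overlapped in prefrontal cortex, and the shift was 0.80 ± 0.13 (SE). Spp1, the secreted phosphoprotein osteopontin, had 9.26, 6.10 and 9.96 against 2.05, 4.92 and 6.87 FPKM in hippocampus, with overlap, and 2.99, 3.45 and 3.28 against 3.87, 5.40 and 5.33 FPKM in prefrontal cortex, without overlap. Its shift was 1.29 ± 0.26 (SE), and it shares its locus with a predicted gene on the same strand.

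Serpinf1, the secreted factor PEDF, had a shift of 0.80 ± 0.15 (SE) and Omd, a small proteoglycan of matrix, one of 0.79 ± 0.16 (SE), and in both the larger part lay in prefrontal cortex, at -0.57 and -0.69. Omd stood there at 2.06, 1.98 and 1.97 FPKM in irradiated and at 3.83, 3.55 and 4.16 FPKM in control mice, while its hippocampal values overlapped. Mdk, the growth factor midkine, likewise stood at 10.5, 9.97 and 10 FPKM in irradiated and at 13.9, 14.6 and 15.1 FPKM in control prefrontal cortex, and its hippocampal values overlapped, at 16.8 to 20.3 and 16.1 to 19.4 FPKM. Its shift was 0.57 ± 0.12 (SE).

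In contrast, Ctgf, a matrix protein induced by TGF-beta and YAP, and Ntng1, an axon guidance ligand of thalamic and other projection neurons, had most of their shift in hippocampus. Ctgf stood there at 9.82, 7.48 and 7.84 FPKM in irradiated and at 3.11, 4.07 and 3.44 FPKM in control mice, with no overlap. In prefrontal cortex its levels overlapped, at 12.9 to 14.5 and 8.83 to 14.6 FPKM, and the shift was 0.84 ± 0.16 (SE). Ntng1 stood in hippocampus at 11.2, 11.2 and 9.20 against 6.29, 7.44 and 8 FPKM, with a shift of 0.64 ± 0.12 (SE).

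Further positive shifts were found in Pbx4, a homeobox protein, at 0.61 ± 0.11 (SE), in Apod, a lipid carrier of glia and fibroblasts, at 0.48 ± 0.08 (SE), and in Pigf, an enzyme of membrane anchors that overlaps with Rhoq on the other strand, at 0.46 ± 0.09 (SE). The proteoglycan Gpc3 had a shift of 0.69 and Erich3, a glutamate-rich protein, one of 0.62, and both were higher in hippocampus and lower in prefrontal cortex at p under 0.05.

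On the negative side, Dynlrb2 (chromosome 8, 116504974 to 116515915), whose window with the X-box is printed above, had the smallest p of all genes tested. In hippocampus it stood at 8.08, 5.44 and 8.40 FPKM in irradiated and at 12.4, 11.8 and 11.2 FPKM in control mice, with no overlap. In prefrontal cortex, where it was low, it stood at 2.09, 0.99 and 2.71 FPKM in irradiated and at 1.35, 1.49 and 1.31 FPKM in control mice, and the groups overlapped. The region difference was 1.55, 1.69 and 1.34 in irradiated and 2.52, 2.37 and 2.40 in control mice, a shift of -0.90 ± 0.12 (SE, n = 3 mice per group, limma adjusted p = 0.281).

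Among the genes that the naming rule took for the smallest p on the negative side, the shifts other than that of Dynlrb2 were smaller in size. Fkbp1b, which stabilises calcium release channels, stood in hippocampus at 25.9, 25.1 and 26.6 FPKM in irradiated and at 31.9, 29.4 and 31.4 FPKM in control mice. Its prefrontal cortex levels were 30.3, 27.5 and 27.7 against 27.0, 24.4 and 24.8 FPKM. The irradiated mice lay below all controls in the first region and above all of them in the second, with a shift of -0.41 ± 0.08 (SE). Mrps18b, a protein of the mitochondrial ribosome that overlaps a predicted gene on the other strand, likewise lay lower in irradiated hippocampus and higher in irradiated prefrontal cortex: 15.7, 15.7 and 18.8 against 19.8, 19.3 and 19.6 FPKM in hippocampus, and 19.6, 19.7 and 21.5 against 18.6, 17.7 and 18.2 FPKM in prefrontal cortex. Its shift was -0.37 ± 0.08 (SE).

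In Gsta4, which detoxifies products of lipid oxidation, the lower values lay in hippocampus, at 59.9, 49.8 and 67.2 against 81.7, 73.8 and 72.8 FPKM, with a shift of -0.32 ± 0.07 (SE). In Galnt9, an enzyme that starts O-glycans in brain, the higher values lay in prefrontal cortex, at 26.5, 26.2 and 25.1 against 20.4, 18.7 and 19.0 FPKM, with a shift of -0.38 ± 0.09 (SE). Bok, a BCL2 family protein, had a shift of -0.34, Igfbp4, which binds insulin-like growth factors, -0.35, Uxs1, which makes the sugar donor for proteoglycans, -0.33, Gmpr, an enzyme of purine metabolism, -0.26, Fbxw9 -0.38 and Ltc4s, the synthase of leukotriene C, -0.78. Cmc4, at -0.62, shares its locus with Mtcp1 on the same strand, so its reads cannot be assigned with certainty, and Gmpr and Fbxw9 overlap other genes on the opposite strand.

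Genes of the vessel wall had positive shifts of a different make-up. Of 31 tested genes of endothelium and the blood-brain barrier, 23 had a positive shift and 9 had p under 0.05, all positive, with a median of 0.19, where 2.92% of all genes had a positive shift at that p. In contrast to the fibroblast genes, these were higher in irradiated mice in both regions, with medians of 0.38 in hippocampus and 0.10 in prefrontal cortex. In hippocampus 27 were higher, 15 of them at p under 0.05, and in prefrontal cortex 29 were higher, 7 of them at p under 0.05. Over all genes the shares higher at that p were 4.67% in hippocampus and 2.4% in prefrontal cortex. Like all lists here, those of endothelium and of pericytes were written with earlier results of these data known. Their counts and medians are therefore not independent evidence, and the shares are given for scale only. Ly6c1, a surface protein of endothelial cells (chromosome 15, 75044018 to 75048830), stood in hippocampus at 21, 26.1 and 30.6 FPKM in irradiated and at 8.99, 15.1 and 11.4 FPKM in control mice. Its prefrontal cortex levels were 24.6, 27.3 and 35.0 against 17.5, 20.8 and 22.7 FPKM. The groups did not overlap in either region, and the shift of 0.60 ± 0.13 (SE) was 1.08 in hippocampus less 0.48 in prefrontal cortex. Its relative Ly6a had 1.04 and 0.53 and a shift of 0.51. The 2 genes belong to a family of similar sequences, whose reads the counting could split.

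In the drug exporter Abcb1a, the endothelial transcription factor Sox18 and the matrix glycoprotein vitronectin, Vtn, which pericytes make, nearly all of the shift lay in hippocampus. Irradiated minus control was 0.54, 0.52 and 0.67 there, and 0.00, 0.07 and 0.02 in prefrontal cortex. Vtn stood at 39.2, 45.8 and 42.3 FPKM in irradiated and at 23.5, 24.5 and 31.5 FPKM in control hippocampus, with no overlap, and its shift was 0.65 ± 0.14 (SE). All 14 tested genes of pericytes and smooth muscle had a positive shift, 4 of them at p under 0.05, with a median of 0.24. Besides Vtn these were the signalling regulator Rgs5, at 0.22, the pericyte genes Atp13a5, at 0.38, and Ndufa4l2, at 0.39. The share of all genes with a positive shift at that p was 2.92%. The mean region difference over the 14 genes was 0.00, 0.17 and 0.04 in irradiated and -0.39, -0.19 and -0.05 in control mice, so irradiated mouse 1 lay just above control mouse 3. For the endothelial genes it was 0.01, 0.05 and -0.04 in irradiated and -0.32, -0.20 and -0.10 in control mice.

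**Figure D4:**
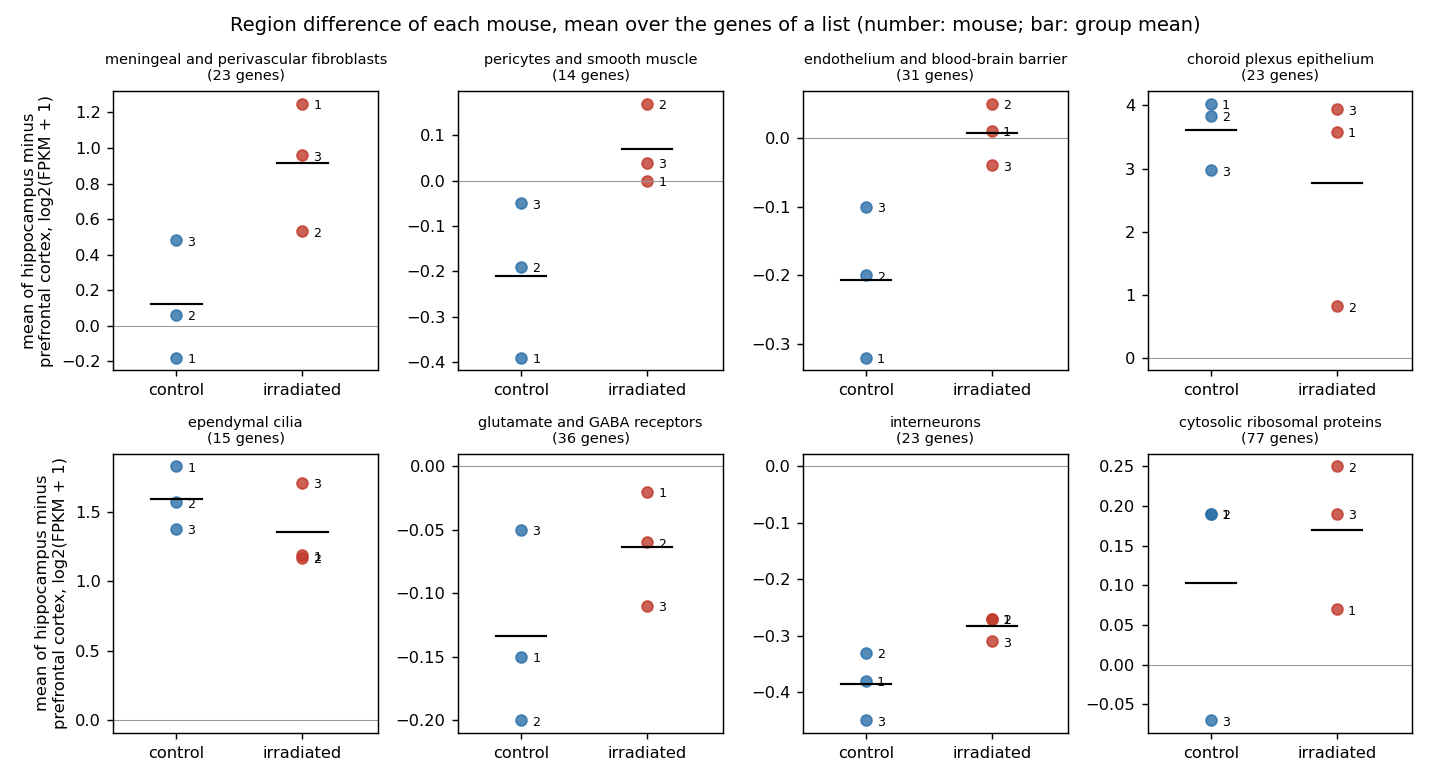
Mean region difference (hippocampus minus prefrontal cortex, log2(FPKM + 1)) over the genes of 8 lists, 1 point per mouse with its number, and a bar for the group mean; vertical axes differ between panels. For fibroblasts, pericytes, endothelium and interneurons the 3 irradiated mice lie above the 3 controls, and for choroid plexus irradiated mouse 2 lies apart at 0.81.

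Genes of the choroid plexus and of ependymal cilia had negative shifts. Of 23 choroid genes 22 were negative and 0 had p under 0.05, with a median of -0.92. Col9a3, a collagen chain, stood in hippocampus at 14.1, 2.83 and 15.3 FPKM in irradiated and at 22.2, 17.3 and 15.5 FPKM in control mice. Steap1, a member of the STEAP protein family, stood there at 5.80, 0.349 and 6.43 against 11.8, 7.87 and 5.94 FPKM. Their shifts were -0.80 ± 0.43 (SE) and -1.13 ± 0.60 (SE). The negative values followed irradiated mouse 2, without which the list's median was 0.01. Ttr, the carrier of thyroid hormone, was also low in the hippocampus of that mouse, at 52.1 FPKM against 2974.2 to 5624.5 FPKM in the other 5. In prefrontal cortex it ranged from 0.553 to 58.1 FPKM. Its shift was -0.81 ± 1.67 (SE) and rested on several mice. It was 0.98 without irradiated mouse 2, 0.26 without control mouse 2 and -2.53 without control mouse 3. Of 15 genes of ependymal cilia 14 were negative and 2 had p under 0.05, Dynlrb2 and Enkur, a protein that tethers channels in cilia, at -0.40. Over all genes the share at that p with a negative shift was 2.36%. The median of the list was -0.17, and it ranged from -0.34 without irradiated mouse 3 to -0.05 without control mouse 1, so its size rested on single mice. The shift of Dynlrb2 was -0.98 without irradiated mouse 2, whose choroid plexus was low, and -0.80 to -0.93 with each other mouse left out. The amount of ventricular wall in each block was not measured and its part in these shifts was not tested.

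Among genes of neurons, the medians of the lists of cortical layers, hippocampal subfields and interneurons lay between -0.01 and 0.05. For scale, 2.92% of all genes had a positive and 2.36% a negative shift at p under 0.05. Of 30 tested genes of cortical layers 14 had a positive shift, with a median of -0.01, 4 at p under 0.05 on the positive and 1 on the negative side. Of 28 genes of hippocampal subfields 14 were positive, with a median of 0.00 and 3 genes at p under 0.05 on each side. Of 23 tested genes of inhibitory interneurons, 13 had a positive shift and 6 had p under 0.05, all positive, with a median of 0.05. Reln, a secreted protein of Cajal-Retzius cells and interneurons (chromosome 5, 21884454 to 22344702), stood in hippocampus at 9.64, 9.08 and 9 FPKM in irradiated and at 5.49, 6.69 and 7.11 FPKM in control mice. In prefrontal cortex it stood at 8.78, 10.8 and 9.35 against 9.11, 10 and 10.1 FPKM. The groups separated in hippocampus and overlapped in prefrontal cortex, and the shift was 0.48 ± 0.11 (SE). Calb2, the calcium buffer calretinin, had a shift of 0.53 ± 0.13 (SE) from the other side: 8.57, 5.71 and 12.9 FPKM in irradiated and 14.8, 13.4 and 18.7 FPKM in control prefrontal cortex, against overlapping levels of 21.7 to 38.0 and 31.4 to 37.6 FPKM in hippocampus. The transcription factor Dlx5 had 0.40 and Gad2, which makes GABA, 0.26.

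Of 36 receptors of glutamate and GABA, 26 had a positive shift and 6 had p under 0.05, all positive, with a median of 0.06. The sign of that median rested on single mice: it was -0.03 without control mouse 2 and 0.09 without control mouse 3. The share of all genes with a positive shift at p under 0.05 was 2.92%. The metabotropic glutamate receptors Grm4, Grm8 and Grm2 had shifts of 0.47, 0.36 and 0.36, and the kainate receptor subunit Grik3 0.31. Grm4 stood at 5.23, 4.51 and 4.12 FPKM in irradiated and at 2.87, 3.42 and 2.52 FPKM in control hippocampus, with no overlap, and at 8.58 to 8.86 and 8.08 to 8.60 FPKM in prefrontal cortex. Slc17a6, the vesicular glutamate carrier of thalamus and other subcortical tissue, was also higher in irradiated hippocampus, at 5.55, 7.60 and 5.84 against 3.59, 5.23 and 4.03 FPKM, with a shift of 0.62 ± 0.17 (SE). Of 14 tested genes of hypothalamus and thalamus 12 had a positive shift and 2 had p under 0.05, with a median of 0.25. The mean region difference of that list was -0.92 in control mouse 3 and -0.07 to 0.17 in the other 5 mice, and without control mouse 3 the median was 0.12. What part that library has in the shifts of other neuronal genes was not tested.

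Among glial genes, 16 of 24 astrocyte genes had a positive shift and 6 had p under 0.05, all positive, with a median of 0.06. At that p, 2.92% of all genes had a positive and 2.36% a negative shift. In Id3, a regulator of transcription, Gja1, the connexin of astrocyte junctions, and the water channel Aqp4 the shifts of 0.40, 0.26 and 0.24 lay in prefrontal cortex, with effects there of -0.43, -0.30 and -0.24 and in hippocampus of -0.03, -0.04 and 0.00. Gja1 stood in prefrontal cortex at 55.1, 53 and 68.5 FPKM in irradiated and at 64.8, 76.3 and 75.8 FPKM in control mice, where irradiated mouse 3 overlapped with control mouse 1. Of 26 microglial genes 9 had a positive shift and 2 had p under 0.05, both negative: Trem2, a lipid-sensing receptor, and Aif1, the marker protein IBA1. Trem2 stood in hippocampus at 11.3, 10.5 and 12.2 FPKM in irradiated and at 15.6, 15.5 and 14.2 FPKM in control mice, with no overlap, while its levels in prefrontal cortex overlapped, at 11.6 to 12.8 and 11.5 to 13.9 FPKM. The shifts were -0.32 ± 0.10 (SE) and -0.42 ± 0.15 (SE), and the median of the list was -0.05.

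Genes of retinoic acid and thyroid hormone differed in both directions. Of 27 tested, 11 had a positive shift, and 3 had p under 0.05 on the positive and 4 on the negative side, with a median of -0.02. At that p, 2.92% of all genes lay on the positive and 2.36% on the negative side. Crabp2 and Aldh1a2 lay on the positive side, as did Crabp1, another binding protein of retinoic acid, at 0.59 ± 0.20 (SE). Rara, a retinoic acid receptor, lay on the negative side at -0.32 ± 0.11 (SE). It stood in prefrontal cortex at 5.14, 6.11 and 5.56 FPKM in irradiated and at 3.39, 4.24 and 3.80 FPKM in control mice, with no overlap, and in hippocampus at 6.70 to 7.31 and 5.76 to 6.54 FPKM, also without overlap.

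In the groups that follow, the medians of the regions had the same sign or lay near 0. For scale, 2.92% of all genes had a positive and 2.36% a negative shift at p under 0.05. The 77 proteins of the cytosolic ribosome were lower in irradiated mice in 76 genes of each region, with medians of -0.24 in hippocampus and -0.31 in prefrontal cortex. Their shift was positive in 57 genes with a median of 0.06, and 3 had p under 0.05, among them Rpl28 and Rps28 at 0.33 each. Without control mouse 3 the median was -0.03. For 77 nuclear genes of oxidative phosphorylation the medians were -0.17 and -0.15 and the median shift -0.01, with 0 genes at p under 0.05. For 28 myelin genes they were -0.20 and -0.14 with a shift of -0.06. For 26 targets of p53 they were 0.00 and 0.02 with a shift of -0.02. Of 25 genes of the hypoxia response, 20 had a negative shift with a median of -0.08. One of them, Bhlhe40, a transcription factor of hypoxia and the clock, had p under 0.05, at -0.27, with effects of 0.25 in hippocampus and 0.51 in prefrontal cortex. Of 42 activity-induced genes, 19 had a positive shift, 1 had p under 0.05 on the positive and 4 on the negative side, with a median of -0.03. Arc, a synaptic gene induced by activity, stood in hippocampus at 44.7, 40 and 33.4 FPKM in irradiated and at 51.6, 46.0 and 38.5 FPKM in control mice, and in prefrontal cortex at 81.1, 66.2 and 50.1 against 72.7, 59.9 and 47.8 FPKM. Its levels overlapped in both regions, but the shift within mice was -0.32 ± 0.09 (SE). With 1 mouse left out, the median shift lay between -0.06 and 0.04 for oxidative phosphorylation, between -0.04 and 0.01 for the p53 targets, between -0.05 and 0.02 for the activity-induced genes and between -0.09 and 0.01 for retinoic acid and thyroid hormone, so these medians had no stable sign.

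**Figure D5:**
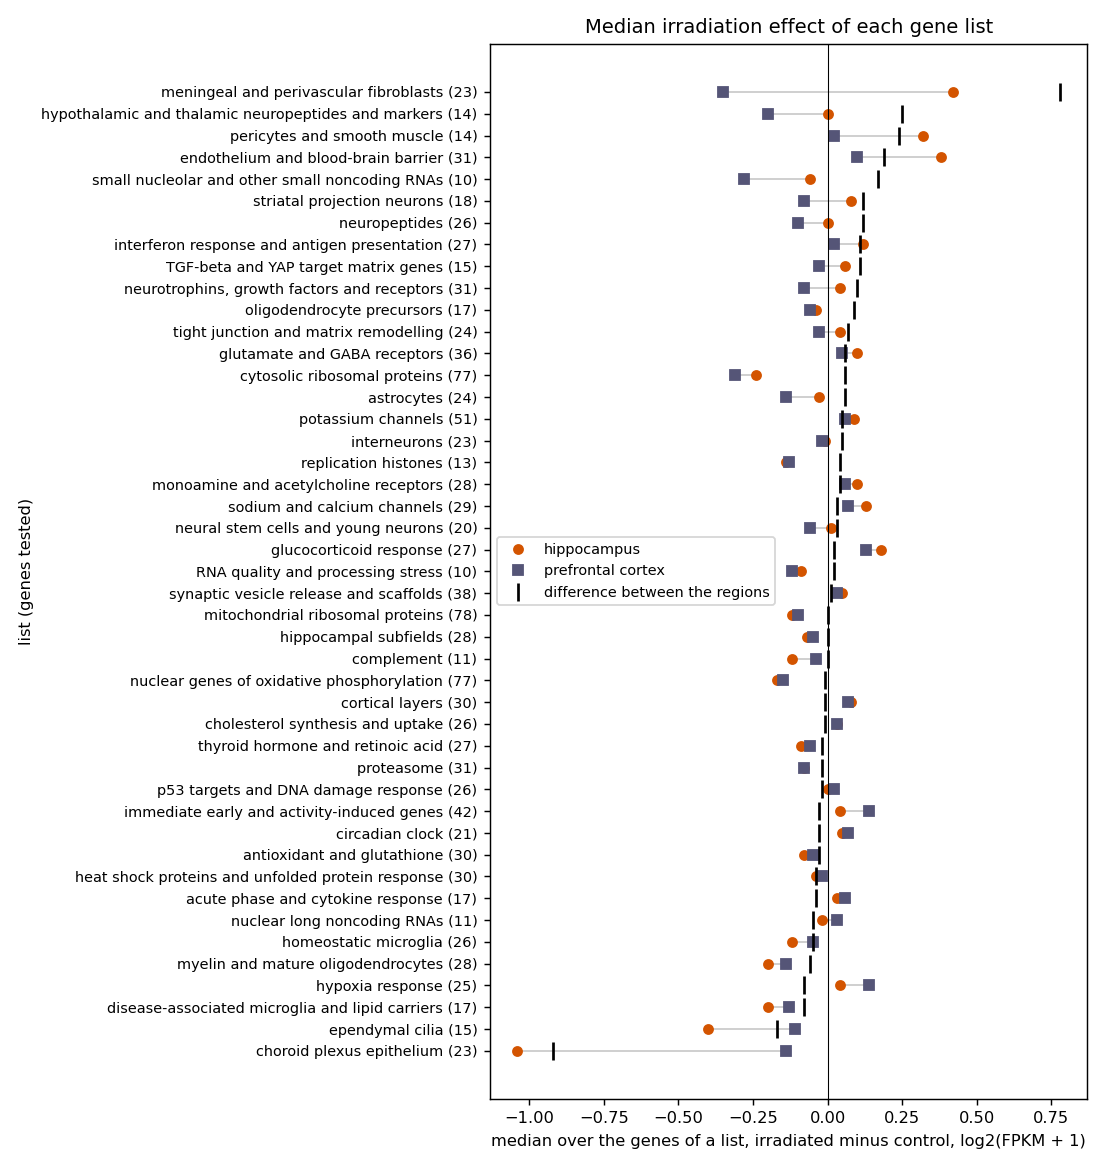
Median over the tested genes of each of 45 lists (number of genes in brackets) of irradiated minus control on the log2(FPKM + 1) scale in hippocampus (orange circles) and prefrontal cortex (dark squares), and median shift (black bar), ordered by the shift. Fibroblasts at the top are the list where the medians of the regions lie farthest apart with opposite signs, at 0.42 and -0.35, and choroid plexus at the bottom has -1.04 and -0.14.

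A few single genes were to be given whatever their shift. They were chosen with earlier results of these data known, so their values are not independent evidence. The acute-phase proteins Lcn2, an iron-siderophore binder, and Lrg1, a modulator of TGF-beta signalling in vessels, stood higher in irradiated mice in both regions, by 1.82 and 1.30 for Lcn2 and by 1.11 and 0.59 for Lrg1. Their shifts were 0.52 ± 0.25 (SE) and 0.51 ± 0.21 (SE), and that of Lrg1 reached an unadjusted p under 0.05. Acer2, a ceramidase, had a shift of 0.40 ± 0.21 (SE), and Ninj2, an adhesion protein, one of -0.40 ± 0.18 (SE). Vegfa, the growth factor of vessels, was higher by 0.59 in hippocampus and 0.49 in prefrontal cortex, and its shift was 0.10 ± 0.08 (SE). The shifts of the p53 target Cdkn1a, the young-neuron gene Dcx and the glucocorticoid target Fkbp5 were 0.11, 0.13 and 0.08, with SEs of 0.14, 0.12 and 0.09. Those of the astrocyte filament Gfap, the myelin gene Mbp, the neurotrophin Bdnf and the activity gene Fos were -0.07, -0.06, -0.04 and -0.03, with SEs of 0.11, 0.12, 0.10 and 0.13, and each changed sign when 1 mouse was left out. The inflammatory genes C3, Tnf, Il1b, Il6 and Ccl2 had means of 0.59, 0.00913, 0.18, 0.0295 and 0.189 FPKM, below the minimum, and were not tested.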

How the data were processed

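RNA was extracted with Trizol and made into strand-specific libraries, per the labels' protocols. TopHat and the mouse build mm10 are named in the submitters' processing notes. The sources used here do not give the counting tool, its use of strand or the annotation. The authors deposited 1 value per gene and library, taken here as FPKM (fragments scaled by gene length and library size): the files name no unit, and the values are not whole and scale with gene length. The depth in reads is unknown. All 12 libraries carry the same batch label.

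Values were analysed as log2(FPKM + 1) where the mean over libraries was 1 FPKM or more, in R 4.3.3 with limma 3.58.1 (moderated test with a variance trend, Benjamini-Hochberg adjustment, threshold 0.05). The plan also allowed for counts, whose tests were not used because the values are FPKM. The region difference was taken within each mouse and compared between 3 irradiated and 3 control mice. The titles number the mice in both regions, and the shared number was taken as 1 animal. As a check of this pairing, the deviations of a mouse's libraries from their group means correlated at 0.17, 0.26 and 0.30 in irradiated mice and at 0.29, -0.01 and 0.05 in controls. The hippocampus of control mice 2 and 3 correlated more with the prefrontal cortex of another control, at 0.06 and 0.17. For these mice the check did not bear out the pairing, which remains taken from the numbers. The variance trend was set over the mean level of a gene. The trend over the mean region difference was run first and replaced after it had given very wide errors to genes such as Ttr. The procedure was tested on simulated data.

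Genes were named by a rule: up to 12 per direction with the smallest p and all irradiated mice on 1 side of the controls, up to 5 per direction with opposite effects, up to 4 per list and a few single genes, without predicted or clone names. Some genes that the rule names are not reported here. The remaining fibroblast genes are given as members. The lists, motifs and single genes were chosen with earlier results of these data known. Promoter sequences came from RefSeq. Alternatives were the pseudocount, the filter, the scaling, the moderation, a correction for transcript length, the pairing and leaving out each mouse.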

Additional observations from a re-analysis of the deposited data

How the results depend on the processing

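The count of 0 genes with an adjusted p under 0.05 for the shift held under every alternative that kept all mice, and ranged from 0 to 2 when 1 mouse was left out. The 681 genes at an unadjusted p under 0.05 became 1062 without a filter and 445 with a mean of at least 5 FPKM, and without the pairing of regions by mouse (no replicate block) they became 422, while a block as a random effect gave 734. In hippocampus adjusted calls were 3 with robust moderation (Acer2, Crabp2 and Ctgf) and 1 (Vegfa) in 1 fit over all libraries, and 0 to 1 with 1 library left out, where the unadjusted count ranged from 576 to 1969. In prefrontal cortex they were 2 without a filter, 0 in 1 fit over all libraries and 1 to 4 with 1 library left out, and the unadjusted count without a filter was 1419. The 14 genes higher in hippocampus and lower in prefrontal cortex were 2 with a mean of at least 5 FPKM, where fewer genes were tested, and 8 to 28 with 1 mouse left out. The 1 gene of the opposite pattern became 2 with a pseudocount of 0.1, 8 without a filter, 0 with a mean of at least 5 FPKM, 3 with equal totals, 2 without the variance trend, 4 with the length trend removed, 3 in 1 fit over all libraries, 2 with a block by number, and 1 to 5 with 1 mouse left out. With a mean of at least 5 FPKM, where fewer fibroblast genes were tested, 8 had a positive shift and 6 had p under 0.05. With 1 mouse left out, the shift changed sign in 9 of the genes given, with ranges of -0.13 to 0.01 in Bdnf, -0.07 to 0.48 in Bmp6, -0.16 to 0.07 in Fos, -0.16 to 0.04 in Gfap, -0.45 to 0.51 in Igf2, -0.78 to 0.02 in Igfbp2, -0.19 to 0.47 in Lum, -0.19 to 0.03 in Mbp and -2.53 to 0.98 in Ttr. The causes were not tested. The variance trend over the mean region difference, an alternative chosen after seeing the data, gave 699 genes at an unadjusted p under 0.05. Tests on counts were not run because the values are FPKM.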

Other observations

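Some other groups of genes had values of interest that the comparisons above do not use. For scale, 2.92% of all genes had a positive and 2.36% a negative shift at p under 0.05. Of 26 neuropeptide genes 17 had a positive shift and 4 had p under 0.05, all positive. The median was 0.12, and 0.02 when control mouse 3 was left out. Of 27 genes of the interferon response and antigen presentation 19 had a positive shift, 2 had p under 0.05 on the positive and 1 on the negative side, and the median of 0.11 lay between -0.05 and 0.20 when 1 mouse was left out. Of 31 growth factors and receptors 22 had a positive shift, 4 had p under 0.05 on the positive and 1 on the negative side, with a median of 0.10. In 18 tested genes of striatal projection neurons, which the prefrontal cortex libraries carry, 13 had a positive shift and the median of 0.12 was -0.03 without control mouse 3.

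Small nucleolar RNAs were listed at 0 in some libraries and high in others. Snora30 was listed in the hippocampus of irradiated mouse 2 at 127 FPKM, in that of irradiated mouse 3 at 157.6 FPKM, and at 0 in every other library.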
